A study of Bos taurus with 71 samples.

Results

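The CD antigens are leukocyte surface molecules that carry a cluster of differentiation number. The members described here are the genes whose symbol, in the authors' table of immune-related genes, is CD followed by a number, with at most 1 letter and 1 further digit, leaving out the chains of the T-cell and B-cell receptor complexes (CD3D, CD3E, CD3G, CD247, CD79A and CD79B). This gave 47 genes, of 1280 genes in the part of that table at hand and of 21510 genes in the expression files. Each was followed by its Ensembl identifier through every rumen, jejunum and ileum sample.

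RNA-Seq libraries came from tissue of rumen, jejunum (labelled mid-jejunum) and ileum of Holstein bull calves. The paper describes collection and rinsing for jejunum and ileum alone, and how much of the wall the rumen pieces held is not given there. Per region there were 3 calves of D0 and 5 of every later age (D7, D21, D42), 54 samples in all, and each age had its own calves. D0 calves were sampled at birth without colostrum and their intestinal tissue was not rinsed. All older calves had received colostrum and milk and their intestinal tissue was rinsed with PBS. The D21 and D42 calves were also offered calf starter. Birth, feeding and rinsing thus differ together between D0 and the later ages and cannot be told apart. Within an age, equal animal numbers were read as the same calf across regions, for the rumen on the labels alone, and values below are listed by animal number.

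CD numbers are given to surface molecules that antibodies recognise on leukocytes, and many of them are also made by epithelial, endothelial or stromal cells. CD22 sits on B cells and tunes signals of the B-cell receptor, CD2, CD5 and CD8A sit mainly on T cells, and the SLAM family and B7 ligands carry contacts between leukocytes. The bovine ileum is known for a long continuous Peyer's patch built of B-cell follicles, the jejunum for scattered patches and an absorptive epithelium, and the rumen for a stratified squamous epithelium. The 47 members were grouped into 8 roles, namely B-cell antigens, T- and NK-cell receptors, co-signalling molecules, myeloid and scavenger receptors, tetraspanins, complement regulators, endothelial and stromal antigens, and broadly expressed antigens.

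Values are CPM rounded to whole numbers, so the depth behind each value is unknown and 1 CPM is the smallest step. CPM was not divided by gene length, so levels are compared between samples and not between genes. In whole tissue, fewer cells of a type and less RNA per cell cannot be told apart. A gene was called differentially expressed (DE) at FDR < 0.05 and fold change > 2, with limma on log2(CPM + 1) and adjustment over all genes tested, and fold changes are differences on that log2 scale ± SE. Fold changes of genes with low CPM are understated on this scale, and no fold change is given where a group was listed at 0 in every sample.

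Some libraries stood apart. Of the ileum libraries, animal 1 of D42 and animals 1 and 2 of D0 did not follow the authors' own CPM table, while the other 33 of 36 intestinal samples did. Ileum animal 1 of D0 had a summed CPM of 191 over 10 B-lineage markers and of 161 over 7 pan-leukocyte markers, against 5955 and 6577 and against 2050 and 1866 in animals 2 and 3. Ileum animal 1 of D42 had 537 and 440, against 5242 to 7748 and 1869 to 2549 in the other 4 calves. Rumen animal 2 of D0 had the lowest of the 3 D0 values for 24 of the 47 members, and its summed stroma and muscle markers were at 6765, against 51475 and 54302 CPM. Counts of calls that changed without these libraries, and folds of the members most affected, are also given without them.

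**Figure D1:**
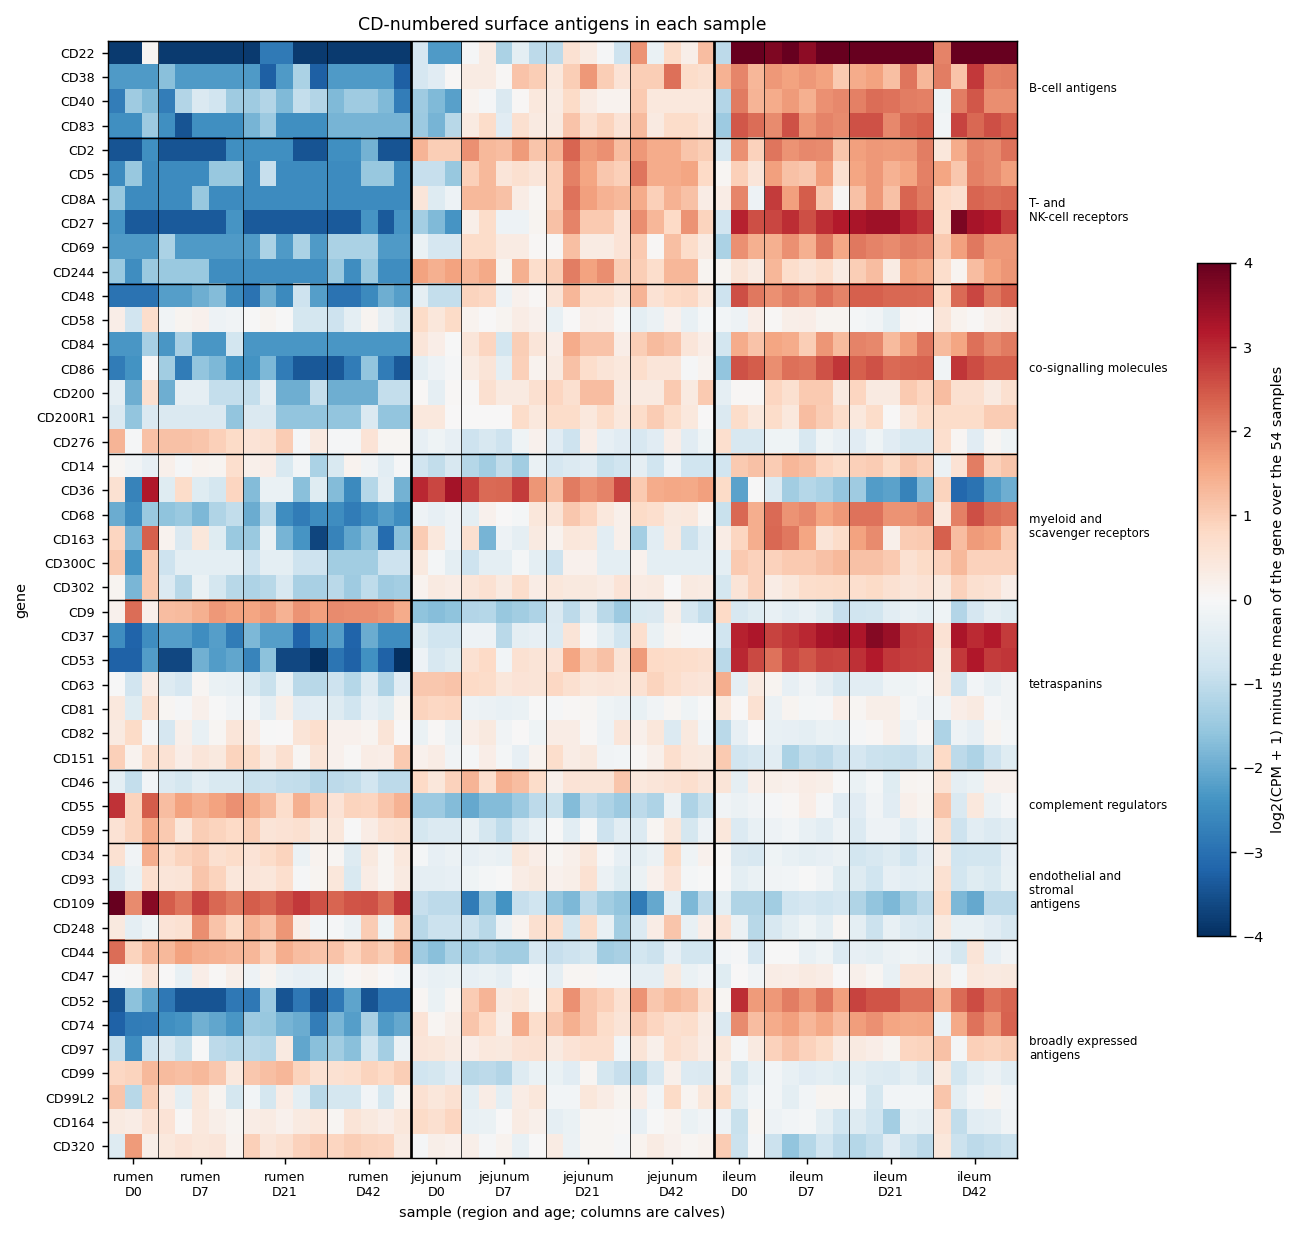
Log2(CPM + 1) of the members in 54 samples, each gene relative to its own mean over all samples, with members ordered by role and samples by region and age. The B-cell antigens are above their means in most ileum samples and below them in rumen samples, with ileum animal 1 of D0 and of D42 standing apart.

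All 5 B-cell antigens and all 6 T- and NK-cell receptors were higher in jejunum and in ileum than in rumen at 1 or more ages. Of these, CD40 alone passed the filter on low values within the rumen, and the others were tested through their intestinal values, so the counts by role are a description. The authors' table holds immune-related genes expressed in jejunum or ileum. All 47 members passed this filter in both intestinal regions, and 34 did within the rumen. All genes tested also include those that passed in the rumen alone. Counts and medians against the rumen, here and below, are thus not like for like with those of all genes. Against the rumen, 27 members were higher in the jejunum at 1 or more ages, where the share of all genes tested was 28.1%, and 9 were lower (all genes, 17.2%). Likewise 27 were higher in the ileum than in the rumen (all genes, 35.9%) and 12 lower (all genes, 16.9%). Between the intestinal regions, 20 members were IL-enriched at 1 or more ages (all genes, 21.4%) and 4 were JE-enriched (all genes, 16.2%). These comparisons share samples, so each pair of regions is given by its own values.

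**Figure D2:**
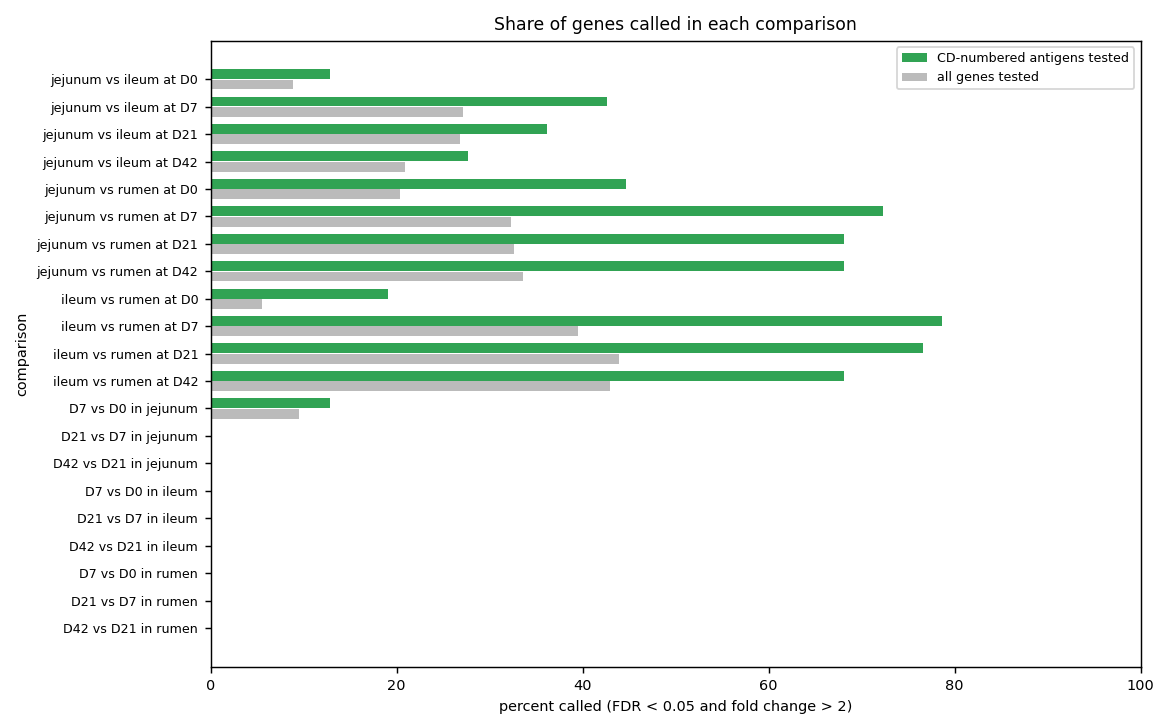
Percent of members tested that were called DE, beside the percent of all genes tested, in the 21 comparisons of 2 groups. The 2 shares lie at 42.6% and 27.1% for jejunum against ileum at D7, at 78.7% and 39.5% for ileum against rumen at D7, and at 0 or near 0 for all age comparisons other than D7 against D0 in the jejunum.

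The first comparison asked which CD antigens differed between jejunum and ileum. At D7, 20 of 47 members were DE (all genes, 27.1%), 2 JE-enriched (all genes, 9.62%) and 18 IL-enriched (all genes, 17.5%). At D21, 17 members were DE (all genes, 26.8%), 2 JE-enriched (12.1%) and 15 IL-enriched (14.7%), and at D42 there were 13 (20.9%), 1 JE-enriched (7.64%) and 12 IL-enriched (13.3%). In newborn calves there were 6 (8.87%), 2 JE-enriched (6.04%) and 4 IL-enriched (2.83%). The median log2 fold change, jejunum over ileum, was −0.59 over the members at D7, beside −0.25 over all genes, and −0.21 at D21, beside −0.12. Median-ratio scaling shifted the median of all genes by 0.26 at D7, 0.17 at D21 and 0.18 at D42, and with it the JE-enriched and IL-enriched members numbered 5 and 14 at D7, 4 and 14 at D21, 4 and 9 at D42, and 3 and 3 at birth. Counts of all genes under this scaling are not given here or below, so the members' numbers under it are a description. Single calves moved the counts at 2 ages, for all genes as for the members. At D0, 19 members were DE without calf 1 (all genes, 901 JE-enriched and 1755 IL-enriched of 13942) and 0 without calf 2 or calf 3, where 0 of all genes were. At D42, 20 were DE without calf 1, of which 3 were JE-enriched and 17 IL-enriched (all genes, 1768 and 2234), and 7 without calf 4 or calf 5 (all genes, 741 and 1292, and 895 and 1721).

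All 5 B-cell antigens were IL-enriched at 1 or more ages. CD22 (ENSBTAG00000011887), a sialic acid-binding co-receptor that dampens B-cell receptor signals, was at 190, 255, 171, 241 and 383 CPM in the ileum of D7 and at 13, 17, 5, 10 and 6 CPM in the jejunum. The 2 groups were far apart, with a log2 fold change of −4.54 ± 0.30 (FDR = 1.26e-07). At D21 CD22 was at 266, 341, 264, 254 and 228 CPM in the ileum and at 6, 21, 17, 13 and 7 CPM in the jejunum (−4.42 ± 0.29, FDR = 1.71e-07). At D42 the jejunum held 49, 11, 23, 16 and 33 CPM and the ileum 56, 367, 287, 278 and 246 CPM. The lowest ileum value, of animal 1, was close to the highest jejunum value, and the log2 fold change was −3.12 ± 0.53 (FDR = 0.00119), or −3.59 without ileum animal 1.

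CD40, the receptor through which T cells help B cells, was at 37, 43, 35, 47 and 50 CPM in the ileum of D7 and at 14, 12, 8, 13 and 17 CPM in the jejunum (−1.68 ± 0.18, FDR = 5.85e-06). CD83, which marks activated antigen-presenting cells and B cells, was IL-enriched at D7 and D21 with log2 fold changes of −1.68 ± 0.22 and −1.62 ± 0.17. CD38, an ectoenzyme that makes cyclic ADP-ribose, was DE at D0 alone, at 5, 6 and 9 CPM in the jejunum and 24, 36 and 23 CPM in the ileum (−1.91 ± 0.30, FDR = 0.0256). Its later folds were smaller, −0.98 ± 0.22 at D7 and −0.61 ± 0.25 at D21.

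At D0 the ileum values of the B-cell antigens other than CD38 fell apart by calf. CD22 was at 6, 237 and 238 CPM in ileum animals 1, 2 and 3, against 8, 2 and 2 CPM in the jejunum. Animal 1 lay within the jejunum values, and the gene was not called (FDR = 0.118). CD37 and CD27 followed the same calves, at 15, 234 and 261 CPM and at 5, 86 and 60 CPM. Leaving out ileum animals 1 and 2 leaves a single ileum sample, so effect sizes alone are given. The log2 fold changes were then −5.79 for CD22, −4.40 for CD27 and −3.93 for CD37, and −1.68 for CD38 and −0.77 for CD44. With the calf as a block 0 members were DE at D0, and 2 of all 13942 genes were. Without the block 14 of 47 had an unadjusted p < 0.05 in limma (all genes, 32.8%).

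B-lineage markers moved with these members. Of 10 such genes, 0 were called at D0, 10 were IL-enriched at D7, 9 at D21 and 9 at D42, and their summed CPM ran from 740 to 1854 in the jejunum and from 5569 to 6842 in the ileum of D7. Of 7 pan-leukocyte markers 6, 5 and 5 were IL-enriched at D7, D21 and D42, and of 6 proliferation genes 6, 6 and 5. Of 7 T-lineage markers 0 were called at any age in limma, and 2, 2, 0 and 1 had an unadjusted p < 0.05 at D0, D7, D21 and D42. The part of these cell lists in the members' differences was not tested.

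**Figure D3:**
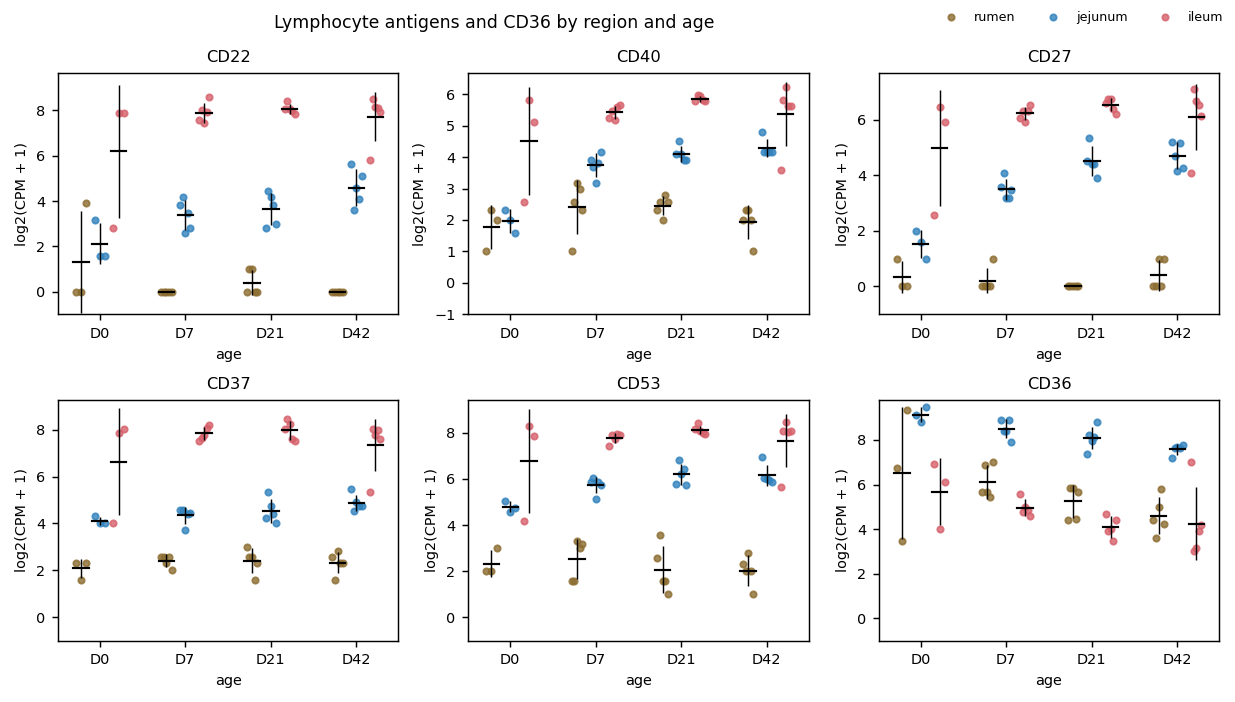
Log2(CPM + 1) of CD22, CD40, CD27, CD37, CD53 and CD36 in each sample, by region and age, with the group mean as a bar and the SD as a line. CD22 is at 171 to 383 CPM in the ileum of D7 against 5 to 17 CPM in the jejunum, and CD36 lies the other way, at 238 to 482 CPM in the jejunum against 23 to 47 CPM in the ileum.

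The T- and NK-cell receptors split. CD27 (ENSBTAG00000014725), a TNF receptor family member of T and memory B cells, was at 65, 79, 60, 78 and 92 CPM in the ileum and at 11, 16, 8, 8 and 10 CPM in the jejunum of D7 (−2.73 ± 0.18, FDR = 1.51e-07). At D42 it was at 36, 25, 17, 35 and 18 CPM in the jejunum and at 16, 138, 101, 92 and 69 CPM in the ileum, where animal 1 was the lowest of all 10 (−1.41 ± 0.51, FDR = 0.0418), and the call was lost with the calf as a block (FDR = 0.080). Without ileum animal 1 the fold was −1.92. CD69, an early activation antigen that retains lymphocytes in tissue, was at 12, 16, 12, 20 and 13 CPM in the ileum of D7 and at 7, 7, 5, 5 and 4 CPM in the jejunum (−1.24 ± 0.19, FDR = 0.000106). It was also IL-enriched at D21 (−1.52 ± 0.19), while at D7 the call did not hold under median-ratio scaling (−0.98). CD5, a scavenger-type receptor that dampens antigen receptor signals, was called at D0 alone, at 2, 2 and 1 CPM in the jejunum and 5, 10 and 7 CPM in the ileum (−1.62 ± 0.33, FDR = 0.0396).

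CD2, the T-cell adhesion receptor for CD58, and CD8A, the co-receptor of cytotoxic T cells, were not called between jejunum and ileum at any age, and their values overlapped at all 4. CD2 was at 38, 26, 25, 35 and 23 CPM in the jejunum of D7 and at 48, 37, 41, 40 and 23 CPM in the ileum (−0.34 ± 0.20, FDR = 0.154). CD244, the NK-cell receptor for CD48, was JE-enriched at D0, at 16, 14 and 16 CPM in the jejunum and 5, 7 and 6 CPM in the ileum (1.23 ± 0.22, FDR = 0.0317). Its later folds lay between −0.19 and 0.36 and none was called.

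Among the co-signalling molecules CD48, a SLAM-family ligand of CD2 and CD244, was at 82, 96, 86, 105 and 92 CPM in the ileum and at 42, 40, 19, 25 and 23 CPM in the jejunum of D7 (−1.66 ± 0.20, FDR = 1.52e-05). It was IL-enriched at D21 (−1.61 ± 0.15) and D42 (−1.25 ± 0.33) too. CD86, a B7 ligand of CD28 and CTLA4 on antigen-presenting cells, was at 75, 95, 92, 121 and 150 CPM in the ileum and at 25, 29, 15, 39 and 22 CPM in the jejunum of D7, with no overlap (−2.02 ± 0.24, FDR = 1.23e-05). CD84, a self-binding SLAM receptor, was called at D7 alone, at 6, 8, 2, 9 and 6 CPM against 14, 13, 9, 16 and 11 CPM, where the groups met at 9 CPM (FDR = 0.00941), just past the 2-fold limit and not under median-ratio scaling (−0.75). CD200, CD200R1, CD276 and CD58 were not called between jejunum and ileum.

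Of the myeloid and scavenger receptors CD14, CD68, CD163 and CD300C were IL-enriched and CD36 was JE-enriched. CD68, a lysosomal glycoprotein of macrophages, was at 131, 95, 105, 82 and 91 CPM in the ileum and at 20, 30, 27, 25 and 37 CPM in the jejunum of D7 (−1.83 ± 0.17, FDR = 1.55e-06). CD14, the co-receptor that hands lipopolysaccharide to TLR4, had a log2 fold change of −2.05 ± 0.21 at D7 and of −1.63 ± 0.11 at D21. Both stood apart at these ages without overlap. CD163, the haemoglobin-haptoglobin scavenger of macrophages, overlapped at D7, at 123, 108, 75, 35 and 41 CPM in the ileum and 39, 6, 21, 19 and 32 CPM in the jejunum (−1.72 ± 0.46, FDR = 0.00606). At D42 it did not, with 133, 59, 82, 76 and 52 CPM against 9, 18, 32, 13 and 18 CPM (−2.13 ± 0.33, FDR = 0.000773), and the fold was −1.94 without ileum animal 1. CD300C, an activating receptor of myeloid cells, was low in both regions, at 9, 10, 10, 11 and 12 CPM in the ileum of D7 and 2, 3, 3, 4 and 3 CPM in the jejunum (−1.52 ± 0.16, FDR = 6.1e-06). Of 8 macrophage markers 0, 2, 1 and 2 were IL-enriched at D0, D7, D21 and D42, with medians of −0.28, −0.30, −0.03 and −0.49.

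CD36 (ENSBTAG00000017866), a scavenger receptor that also takes up long-chain fatty acids in absorptive epithelium, was the member JE-enriched at all 4 ages, where 1.76% of all genes were. The D0 call was lost with no filter (FDR = 0.066), with the calf as a block (FDR = 0.109) and without calf 1, 2 or 3 (FDR = 0.058, 0.228 and 0.251). In the jejunum it was at 564, 447 and 709 CPM at D0 and at 480, 340, 341, 482 and 238 CPM at D7, and in the ileum at 119, 15 and 68 CPM and at 47, 26, 31, 28 and 23 CPM. The log2 fold changes were 3.47 ± 0.74 at D0, 3.56 ± 0.22 at D7 and 3.33 ± 0.64 at D42, and at D21 the FDR was 2.02e-07. At D42 the jejunum held 143, 196, 206, 201 and 220 CPM and the ileum 128, 7, 8, 14 and 17 CPM, so that animal 1 alone came near the jejunum, and without it the fold was 4.02. The 9 enterocyte markers moved with CD36, 9 of them JE-enriched at D7 and D21, 6 at D42 and 1 at D0, and their part in the result was not tested. Ileum animal 1 of D0 also had the highest summed epithelial markers of its group, 2314 CPM against 614 and 914.

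The tetraspanins are small scaffolds with 4 membrane passes. CD37 (ENSBTAG00000011421) and CD53 (ENSBTAG00000006466), the members of the family limited to leukocytes, were IL-enriched from D7 on, and the broadly made CD9, CD63, CD81 and CD82 were not called between the intestinal regions. CD37 was at 180, 199, 221, 269 and 292 CPM in the ileum and 23, 23, 12, 20 and 21 CPM in the jejunum of D7 (−3.50 ± 0.19, FDR = 3.13e-08). CD53 was at 171, 238, 209, 246 and 241 CPM against 57, 64, 34, 57 and 53 CPM (−2.06 ± 0.17, FDR = 5.84e-07). Neither gene's groups overlapped at D7. At D42 CD53 fell to 49 CPM in ileum animal 1 and lay between 262 and 347 CPM in the others (−1.51 ± 0.48, FDR = 0.0258), and this call was lost with the calf as a block (FDR = 0.076) and under median-ratio scaling (FDR = 0.0535), while without ileum animal 1 the fold was −2.01. CD151, a laminin-receptor partner, was JE-enriched at D21 (1.05 ± 0.15, FDR = 9.78e-05). With median-ratio scaling CD63, a lysosomal tetraspanin, became JE-enriched at D7, D21 and D42 (1.17, 1.01 and 1.03).

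CD55, decay-accelerating factor, was the complement regulator called between jejunum and ileum, and it was IL-enriched at all 4 ages, where 0.66% of all genes were. It was at 5, 5 and 4 CPM in the jejunum of D0 and at 3, 4, 4, 5 and 7 CPM at D7, against 14, 13 and 14 CPM and 15, 16, 19, 15 and 11 CPM in the ileum. The log2 fold changes at D0, D7, D21 and D42 were −1.38 ± 0.20, −1.55 ± 0.20, −1.12 ± 0.20 and −1.06 ± 0.32. The D0 call was lost with the calf as a block (FDR = 0.119) and without calf 2 or calf 3 (FDR = 0.240 and 0.166). At D42 the values met, and without ileum animal 1 the gene was not called. The D42 call was also lost without calf 4 or calf 5 (FDR = 0.068 and 0.062). Under median-ratio scaling the folds at D21 and D42 were −0.95 and −0.88 and were not called. CD46 and CD59, the other regulators, were not called, but under median-ratio scaling CD46 was JE-enriched at D7 (1.18, FDR = 0.00013). None of the 4 endothelial and stromal antigens was called. Of them 0, 1, 2 and 0 had an unadjusted p < 0.05 in limma at D0, D7, D21 and D42 (all genes, 32.8%, 66.1%, 65.8% and 53.2%).

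Among the broadly expressed antigens, CD44, the hyaluronan receptor, was IL-enriched at D0 (57, 48 and 64 CPM against 145, 150 and 96 CPM; −1.18 ± 0.24, FDR = 0.0396) and at D7 (−1.01 ± 0.16, FDR = 0.00014). Neither call held under median-ratio scaling. CD52, a small lipid-anchored glycoprotein of lymphocytes, was at 43, 55, 27, 29 and 22 CPM in the jejunum and 72, 89, 73, 95 and 67 CPM in the ileum of D7 (−1.21 ± 0.22, FDR = 0.000379), and was called again at D21 (−1.36 ± 0.20). The D7 call was lost under median-ratio scaling (−0.93). CD320, the receptor for transcobalamin-bound vitamin B12, was JE-enriched at D7, at 38, 31, 35, 26 and 32 CPM against 17, 10, 14, 18 and 15 CPM (1.09 ± 0.16, FDR = 8.45e-05). CD74, the invariant chain of MHC class II, had folds of −0.59 ± 0.22 at D7 and −0.65 ± 0.18 at D21, under the 2-fold limit.

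**Figure D4:**
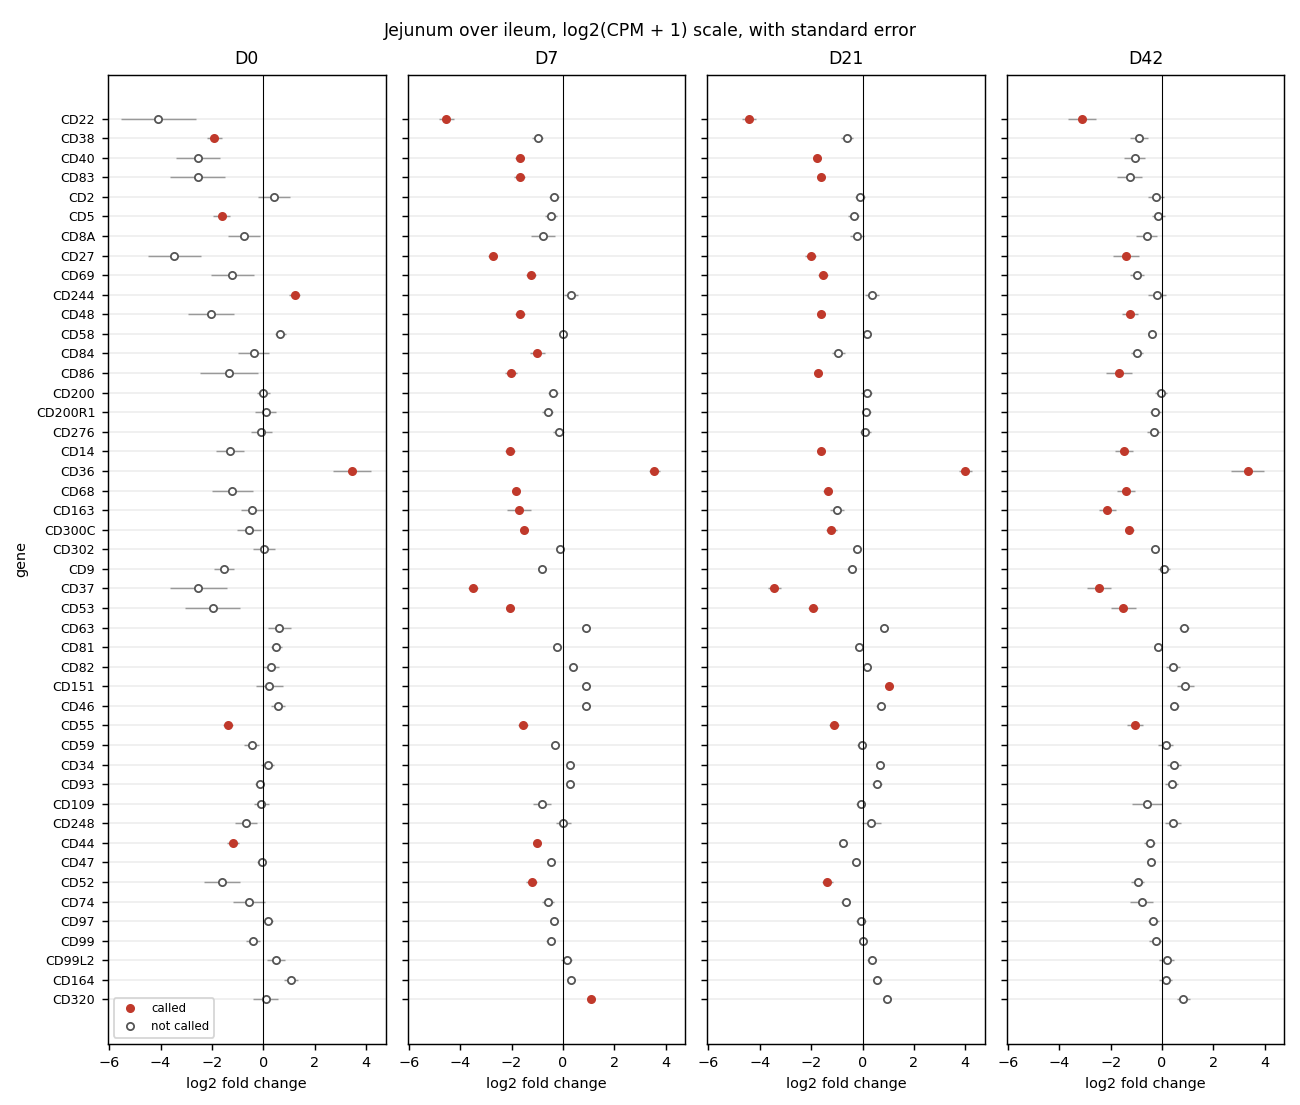
Log2 fold change of jejunum over ileum ± SE for the members at D0, D7, D21 and D42, in limma on log2(CPM + 1), with filled red points for members called DE. The folds run from −4.54 for CD22 to 3.56 for CD36 at D7, and the SE at D0 is wide for the B-cell antigens other than CD38.

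The second comparison set jejunum against rumen. Of 47 members, 21 were DE at D0 (all genes, 20.3%), 34 at D7 (32.3%), 32 at D21 (32.6%) and 32 at D42 (33.6%). Those higher in the jejunum numbered 15, 25, 27 and 27 (all genes, 12.9%, 17.6%, 21.9% and 23.5%), and those lower numbered 6 at D0 (7.39%), then 9 (14.6%), 5 (10.7%) and 5 (1421 of 14174 genes), and 5 of 47 is about the share of all genes at D21 and D42. The median log2 fold change of the members was 0.64, 1.19, 1.56 and 1.53 at D0, D7, D21 and D42, and 0.61, 1.10, 1.54 and 1.49 without the members listed at 0 in every rumen sample of an age, beside 0.03, −0.01, 0.23 and 0.31 over all genes. Against the rumen, 14 members were higher in the jejunum at all 4 ages (all genes, 9.82%) and 5 lower (all genes, 4.66%). At D0, 5 members were DE without animal 1 (all genes, 565 higher and 224 lower), 20 without animal 2 (1933 and 2089) and 9 without animal 3 (860 and 333).

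The third comparison set ileum against rumen. It called 9 members at D0 (all genes, 5.53%), 37 at D7 (39.5%), 36 at D21 (43.9%) and 32 at D42 (42.9%). Those higher in the ileum numbered 8, 25, 26 and 27 (all genes, 2.93%, 25.2%, 30.1% and 32.3%), and those lower 1, 12, 10 and 5 (2.6%, 14.3%, 13.8% and 10.6%). The members' median was 0.62, 1.55, 1.62 and 1.87, or 0.62, 1.45, 1.26 and 1.09 without those at 0, beside 0.08, 0.29, 0.43 and 0.53 over all genes. Median-ratio scaling shifted the median of all genes by −0.24, −0.37 and −0.45 at D7, D21 and D42, and then gave 10 higher and 3 lower members at D0 and 25 and 12 at D42. At D0, 5 of the 9 calls were left with the calf as a block, where CD244, CD48, CD5 and CD27 were lost, and 0 members were DE without animal 2 (0 of all genes) or without animal 3 (1 gene higher and 6 lower). Without ileum animals 1 and 2 of D0, 6 were higher and 0 lower (all genes, 433 and 50).

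Lymphocyte antigens among the members were near the floor in the rumen. CD22 was at 0 in 15 of its 18 samples, with 14 CPM in animal 3 of D0. CD8A was at 0 in 16 of 18 samples and at 1 in the others, and CD27, CD69 and CD244 never passed 1 CPM. Of the defining B-cell genes, CD79A and CD79B were at 0 in every rumen sample of D7, D21 and D42, and the summed B-lineage markers lay between 35 and 93 CPM at all ages. Against these values, CD2 was at 27, 21 and 21 CPM in the jejunum of D0 and at 0, 0 and 1 CPM in the rumen (4.24 ± 0.35, FDR = 0.000752), and its fold lay between 4.12 and 4.70 at all 4 ages. CD38 was at 11, 11, 9, 20 and 18 CPM in the jejunum and at 2, 1, 1, 1 and 1 CPM in the rumen of D7 (2.71 ± 0.24, FDR = 5.3e-07). CD5 was at 10, 13, 7, 8 and 7 CPM against 0, 0, 0, 1 and 1 CPM (2.89 ± 0.28, FDR = 1.1e-06). Of the 7 T-lineage markers, 5 were higher in the jejunum than in the rumen at each age, and 1, 5, 5 and 5 were higher in the ileum. Their summed CPM in the rumen was not near the floor in every sample. It was at 14, 193 and 15 CPM in animals 1, 2 and 3 of D0, against 157 to 199 CPM in the jejunum of D0. Later rumen sums ran from 30 to 56 CPM at D7, 41 to 132 at D21 and 35 to 120 at D42. Of the 10 B-lineage markers, 3 were higher and 2 lower in the jejunum at D0, 7 higher and 3 lower at D7, and 7 higher and 0 lower at D21 and at D42.

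The co-signalling molecules of leukocytes followed. CD48 was the member called in the largest number of the 21 comparisons, 12, and lay at 4, 4, 5, 6 and 3 CPM in the rumen of D7 against the jejunal and ileal values above (2.47 ± 0.24 and 4.13 ± 0.16). CD86 was at 7, 2, 6, 5 and 3 CPM in the rumen of D7 (jejunum over rumen, 2.30 ± 0.30, FDR = 2.09e-05). In the rumen of D0 it reached 20 CPM in animal 3, above all 3 jejunum values of 15, 17 and 19 CPM, and it was not called at that age. CD84, CD200 and CD200R1 failed the filter on low values within the rumen and were tested through their intestinal values. CD200, an inhibitory ligand, and its receptor CD200R1 were low everywhere. CD200 was at 6, 5, 8, 8 and 4 CPM in the jejunum and 1, 2, 0, 0 and 1 CPM in the rumen of D21 (2.09 ± 0.32, FDR = 0.000122). CD84 in the jejunum of D0, at 6, 5 and 4 CPM, was above the rumen at 0, 0 and 1 CPM (2.24 ± 0.34, FDR = 0.00673). CD276, a B7 family member also made by non-immune cells, was lower in the jejunum at D7 (−1.49 ± 0.21, FDR = 4.26e-05).

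CD53 in the rumen lay between 1 and 11 CPM and CD37 between 2 and 7 CPM over the 18 samples. Both were higher in the jejunum at all 4 ages, CD53 by 2.46 ± 0.36 at D0 and by 4.12 ± 0.31 at D42. CD63 was at 500, 504 and 530 CPM in the jejunum of D0 and at 238, 140 and 293 CPM in the rumen (1.25 ± 0.30, FDR = 0.032), a call lost with the calf as a block (FDR = 0.068). CD74 was also higher in the intestine. It was at 3508, 2859, 1951, 4607 and 2689 CPM in the jejunum, 4573, 5144, 4156, 4837 and 3905 CPM in the ileum and 296, 319, 433, 391 and 324 CPM in the rumen of D7, with a fold of ileum over rumen of 3.68 ± 0.13. That of jejunum over rumen was 3.22 ± 0.23 at D0 and 2.89 ± 0.25 at D21. CD52 was at 2, 1, 1, 1 and 2 CPM in the rumen of D7 (jejunum over rumen, 3.87 ± 0.26, FDR = 2.52e-08).

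The myeloid receptors had no common order against the rumen. CD68 was higher in the jejunum at all 4 ages, with 8, 9, 7, 11 and 13 CPM in the rumen of D7 (1.44 ± 0.20, FDR = 3.8e-05). CD163 was called from D21 on in the jejunum (2.09 ± 0.48 and 1.70 ± 0.35). In the rumen of D0 it was at 45, 6 and 132 CPM, and in that of D42 at 3, 5, 7, 2 and 7 CPM. At D7 CD14 was below its rumen level in the jejunum, at 25, 21, 28, 21 and 47 CPM against 65, 55, 62, 61 and 90 CPM (−1.25 ± 0.21, FDR = 0.000217), and higher in the ileum than in the rumen at D21 and D42 (1.26 ± 0.25 and 1.09 ± 0.34). Neither of the ileum calls held under median-ratio scaling (0.86 and 0.62). CD300C was higher in the ileum than in the rumen from D7 on, by 1.59 ± 0.16 at D7. CD36 was at 106, 10 and 648 CPM in the 3 rumen samples of D0, which overlapped both intestinal regions, and from D7 on it was higher in the jejunum (2.39 ± 0.32 at D7). The ileum was lower than the rumen in CD36 at D7 and D21 (−1.16 ± 0.32 and −1.15 ± 0.34).

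A smaller set was highest in the rumen. CD109 (ENSBTAG00000013222), a lipid-anchored protein of keratinocytes and a TGF-beta co-receptor, was the member lower than in the rumen in both intestinal regions at all 4 ages, where 4.66% of all genes were lower in the jejunum and 2.47% in the ileum. Its D0 call in the ileum was lost without ileum animals 1 and 2 (FDR = 0.205). It was at 346, 77 and 260 CPM in the rumen of D0 and at 111, 90, 135, 102 and 87 CPM at D7, against 10, 9 and 9 CPM and 2, 6, 3, 10 and 11 CPM in the jejunum. The groups were far apart at each age, with folds of −4.22 ± 0.57, −4.02 ± 0.34, −4.01 ± 0.16 and −4.11 ± 0.36. In the ileum of D7 it was at 7, 11, 12, 11 and 12 CPM (−3.20 ± 0.17, FDR = 5.29e-09). All 6 genes of the stratified squamous epithelium list were higher in the rumen than in the jejunum, and their part in these differences was not tested.

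CD9, a tetraspanin of epithelia and platelets, was at 533, 547, 604, 761 and 700 CPM in the rumen of D7, 100, 102, 79, 86 and 95 CPM in the jejunum and 183, 169, 183, 160 and 119 CPM in the ileum. Its fold of jejunum over rumen was −2.75 ± 0.13 (FDR = 8.12e-10), and that of ileum over rumen −1.95 ± 0.14 (FDR = 1.16e-07). The 3 regions did not overlap at D7. CD44 was at 379, 476, 429, 407 and 394 CPM in the rumen of D7 and at 59, 65, 58, 58 and 98 CPM in the jejunum (−2.63 ± 0.15, FDR = 5.05e-09). CD99, an adhesion molecule of leukocyte passage through vessels, was at 174, 166, 178, 151 and 97 CPM against 33, 34, 31, 50 and 59 CPM (−1.88 ± 0.21, FDR = 4.74e-06).

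The complement regulators pointed both ways. CD55 was at 38, 49, 43, 49 and 58 CPM in the rumen of D7, above all jejunal and ileal values of that age (jejunum over rumen, −3.14 ± 0.20; ileum over rumen, −1.58 ± 0.16). CD59, which blocks the membrane attack complex, was at 32, 21, 31, 29 and 27 CPM in the rumen and 12, 9, 7, 10 and 12 CPM in the jejunum of D7 (−1.41 ± 0.18, FDR = 1.76e-05). It was lower in the jejunum at D0 as well (−1.58 ± 0.29), and its D21 and D42 folds of −0.96 and −0.57 were not called. CD46, membrane cofactor protein, was higher in the jejunum, at 814, 496, 822, 734 and 518 CPM against 212, 194, 234, 207 and 204 CPM at D7 (1.65 ± 0.16, FDR = 1.22e-06), and was higher at all 4 ages. Of the endothelial and stromal antigens, CD34, a sialomucin of vessels and stromal cells, was lower in the ileum than in the rumen at D7, at 28, 26, 24, 25 and 27 CPM against 52, 60, 65, 50 and 54 CPM (−1.08 ± 0.11, FDR = 2.07e-06). CD248, endosialin of pericytes and fibroblasts, was lower in the jejunum at D7, at 12, 10, 19, 25 and 36 CPM against 33, 35, 84, 51 and 39 CPM, where the highest jejunum value passed 2 of the rumen values (−1.26 ± 0.33, FDR = 0.00557). With the calf as a block it was also called at D21 (−1.09, FDR = 0.001). The 6 stroma and muscle markers were all lower in the jejunum and in the ileum than in the rumen at D7 (medians −2.21 and −2.20). The endothelium markers did not follow them. Of 7 such genes, 0 were higher and 0 lower in the jejunum than in the rumen at D7 (median −0.42). In the ileum 2 were higher and 1 lower (median −0.25). The part of both lists in these differences was not tested.

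**Figure D5:**
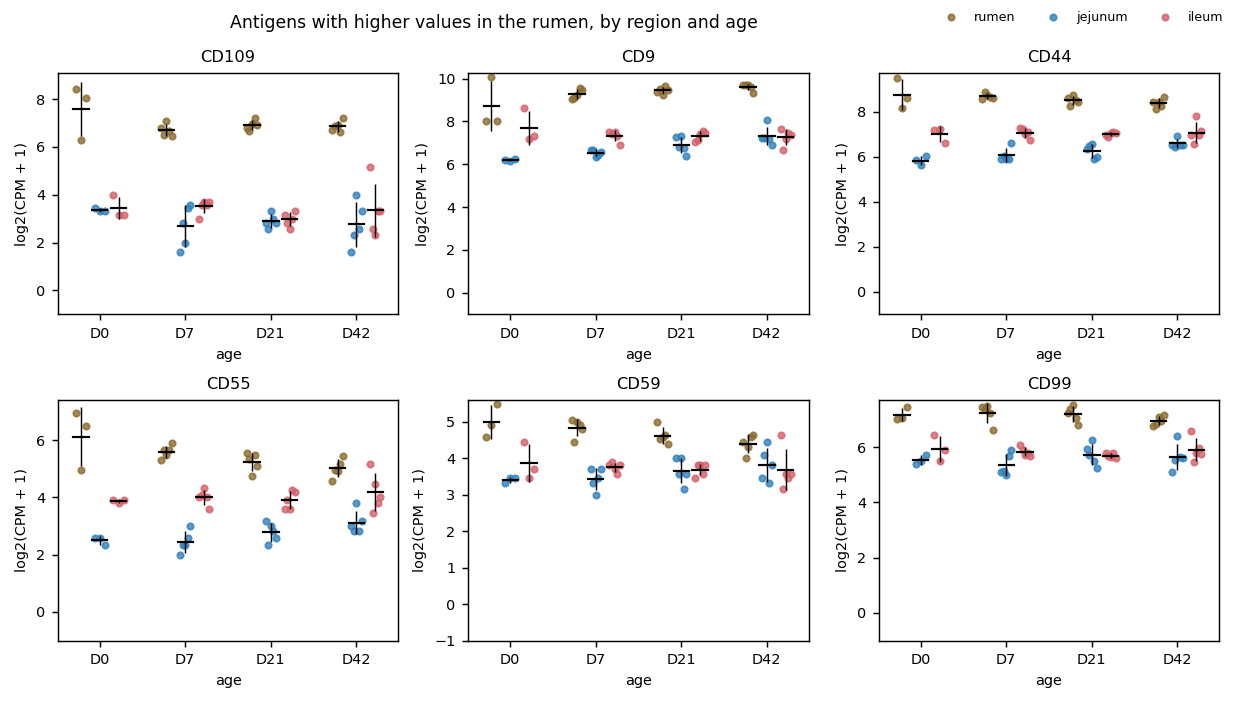
Log2(CPM + 1) of CD109, CD9, CD44, CD55, CD59 and CD99 in each sample, by region and age, with the group mean as a bar and the SD as a line. At D7 the rumen samples of CD109 lie at 87 to 135 CPM and those of both intestinal regions at 2 to 12 CPM.

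The remaining calls against the rumen at D0 include CD52 (2.36 ± 0.50), CD9 (−2.51 ± 0.58) and CD97, an adhesion G protein-coupled receptor (1.85 ± 0.46). None of the 3 was called with the calf as a block (FDR = 0.063, 0.058 and 0.072). CD97 was higher in the jejunum than in the rumen at all 4 ages. CD302, a lectin-type receptor of phagocytes, was higher in both intestinal regions than in the rumen from D7 on, by 1.24 ± 0.17 in the jejunum of D7. The region with the highest median was the ileum for 19, 26, 24 and 28 of the 47 members at D0, D7, D21 and D42, the rumen for 15, 15, 14 and 10, and the jejunum for 9, 6, 8 and 7, with ties for the rest. The same count was not made for all genes. Their median log2 fold change also leaned to the ileum, at −0.25 for jejunum over ileum and 0.29 for ileum over rumen at D7.

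Age was compared within each region. Between D0 and D7 in the jejunum 6 members were DE (all genes, 9.5%), 5 up (all genes, 3.94%) and 1 down (all genes, 5.56%), and none of the 6 overlapped between the ages. Over all members tested 13 of 47 did not overlap (all genes, 29.9%). CD27 rose from 3, 2 and 1 CPM to 11, 16, 8, 8 and 10 CPM (1.97 ± 0.28, FDR = 0.000696). CD5 rose from 2, 2 and 1 CPM to 10, 13, 7, 8 and 7 CPM (1.90 ± 0.25, FDR = 0.000406). Both are lymphocyte receptors, and neither exceeded 3 CPM at birth.

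CD83 rose from 3, 2 and 4 CPM to 13, 17, 7, 16 and 13 CPM (1.81 ± 0.28, FDR = 0.00118). CD40 rose from 4, 3 and 2 CPM to 14, 12, 8, 13 and 17 CPM (1.78 ± 0.25, FDR = 0.000637), and CD48 from 17, 11 and 11 CPM to 42, 40, 19, 25 and 23 CPM (1.10 ± 0.27, FDR = 0.0153). CD81, a broadly made tetraspanin, fell from 506, 480 and 496 CPM to 236, 229, 219, 225 and 270 CPM (−1.07 ± 0.11, FDR = 0.000113). With median-ratio scaling, which moved the median of all genes by 0.11, 9 members were up and 0 down, and CD81 had a fold of −0.95. Leaving out jejunum animal 3 of D7 gave 10 calls, and CD5, CD27, CD40, CD83 and CD81 were called under each omission of 1 sample. The summed B-lineage markers of the jejunum ran from 50 to 149 CPM at D0, from 740 to 1854 at D7, from 1722 to 5413 at D21 and from 1053 to 4115 at D42.

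No member was called in limma between D7 and D21 or between D21 and D42 in the jejunum, where all genes also had 0.0% called. At these steps 5 and 4 members had an unadjusted p < 0.05 in limma (all genes, 5.7% and 5.87%). In the ileum 0 members were called for the 3 steps in age (all genes, 0.0%). There 5, 12 and 2 had an unadjusted p < 0.05 in limma (all genes, 15.8%, 10.8% and 2.51%). In the rumen 34 members were tested, 13 lymphocyte and co-signalling members being too low, and 0 were called at each step. There 4, 7 and 0 had an unadjusted p < 0.05 in limma (all genes, 7.42%, 16.4% and 5.36%). Of all genes, 0.062% were called between D7 and D21 in the rumen. Without rumen animal 2 of D0, 7 members were DE from D0 to D7 in the rumen, CD9 up and CD300C, CD55, CD109, CD163, CD302 and CD99L2 down, and of all 12900 genes 703 were up and 1262 down. With all groups in 1 fit, 1 member was called from D0 to D7 in the ileum, CD320 (−1.12).

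An interaction test asked whether the step from D0 to D7 differed between regions. Between jejunum and rumen 3 members were called, CD83 (2.34 ± 0.48, FDR = 0.0108), CD27 (2.10 ± 0.47, FDR = 0.02) and CD5 (1.83 ± 0.48, FDR = 0.0436), where 1.49% of all genes were called in that direction. All 3 failed the filter on low values within the rumen, where they were at 0 to 3 CPM at both ages, so these values rest mainly on the jejunal rise given above. The value of CD83 also holds a rumen fall near the floor, from 1, 1 and 3 CPM at D0 to 1, 0, 1, 1 and 1 CPM at D7. The count was 8 without rumen animal 2 of D0 (all genes, 883 in that direction), 1 without jejunum animal 3 of D0 (128), and 1, CD83, with a pseudocount of 0.5. Between jejunum and ileum 0 members were called in limma (all genes, 9.56%), with 9 at an unadjusted p < 0.05 (all genes, 31.3%). Without ileum animals 1 and 2 of D0 the call was made for CD83 (2.02 ± 0.47, FDR = 0.040), and without ileum animal 1 alone for 6 members (all genes, 290 in that direction).

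A list of 9 genes, drawn up as partners of the members, was read beside them. In age order, 1, 3, 3 and 2 of the 9 were JE-enriched, and IL-enrichment was called for 1, 4, 4 and 4. CR2, the complement receptor of B cells that partners CD81, was IL-enriched at D7 (−4.94). TLR4, the lipopolysaccharide receptor served by CD14, was IL-enriched at all 4 ages (−1.98 at D7). LY86, on the list but without a known partner among the members, was IL-enriched from D7 on (−2.63 at D7). CIITA, the master regulator of MHC class II genes, was IL-enriched from D7 on (−1.92 at D7), while CTSS and HLA-DMB, which process and unload the CD74 chain, were not called. C3, whose fragments CD46 and CD55 act on, was JE-enriched at all 4 ages (1.09 at D7), C9, the target of CD59, from D7 on (1.52 at D7), and HMOX1, which breaks down the haem that CD163 brings in, at D7 and D21 (1.31 at D7). Against the rumen, 7, 8, 8 and 8 of the 9 were higher and 1 was lower in the jejunum at each age, the lower one being TLR4.

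Of the 47 members, 6 were called in none of the 21 comparisons. They were CD58, the ligand of CD2, CD82, a tetraspanin, CD93, an endothelial and myeloid lectin-type receptor, CD47, a ligand that restrains phagocytosis, CD99L2, a relative of CD99, and CD164, a sialomucin. CD47 ranged from 151 to 299 CPM over the ileum and from 164 to 277 CPM over the jejunum. The others ranged over 19 to 59 CPM (CD58), 84 to 344 CPM (CD82), 28 to 106 CPM (CD93), 2 to 13 CPM (CD99L2) and 46 to 215 CPM (CD164) in the 54 samples.

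Several members are neighbours in gene order on the RefSeq annotation of ARS-UCD2.0. CD46 and CD34 are next to each other, CD2 and CD58 have 1 gene between them, CD48 and CD84 have 1, CD244 and CD48 have 3, CD27 and CD9 have 4, CD244 and CD84 have 5, and CD200 and CD200R1 have 5. Neighbours did not always share a regional order. CD27 was higher in the intestine and CD9 in the rumen, and CD2 was DE against the rumen at every age while CD58 was never called. CD46 was higher in the jejunum than in the rumen at all 4 ages, while CD34 was not called between these regions.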

How the data were processed

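The authors sequenced rumen, jejunum and ileum RNA of Holstein bull calves, processed reads with CASAVA 1.8, aligned them to UMD 3.1 with TopHat2 2.0.10, counted them on Ensembl 75.30 genes with HTSeq and used edgeR for their own tests on counts. The deposited unit is treated as a score, because the authors rounded CPM to whole numbers, which sum to between 970214 and 984626 per sample, so depth is unknown. The 17 distal jejunum files equal 17 ileum files and were not used. The test was limma-trend (limma 3.58.1, R 4.3.3) on log2(CPM + 1) of the 2 groups compared, over genes whose CPM passed 1 in 50% or more of a region's samples, with Benjamini-Hochberg adjustment over all genes tested, and was tested on simulated data. This replaced the count test planned for the case that counts were deposited. Python 3.11.15 with scipy 1.17.1, pandas 2.3.3 and numpy 2.4.6 did the rest. The labels give the same animal numbers in the 3 regions, which the study explains as calves for jejunum and ileum. For the rumen the pairing rests on the labels alone. As a check of this pairing, deviations of same-numbered samples correlated with a mean r of −0.146 to 0.188 per comparison. P-values of the age comparisons measure the spread between calves. Those of the regional and interaction fits without a block measure the spread between samples within each group, and they treat same-numbered samples of 2 regions as independent.

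Members, roles and lists were chosen with earlier results of these data known. Up to 4 members per role, those called in most of the 21 comparisons of 2 groups, are given with CPM per sample and folds, members called in no comparison are named, 1 member is counted but not reported here by name, and other members are named with the comparisons that call them. Members were matched to a RefSeq table of ARS-UCD2.0 by symbol (47, of which 2 by synonym) for gene order only. Alternatives were FDR alone, no filter, a pseudocount of 0.5, median-ratio scaling, all groups in 1 fit, the calf as a block, leaving out each calf or sample, and leaving out the 3 ileum samples unlike the authors' table.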

Additional observations from a re-analysis of the deposited data

Results flagged for a closer look

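Single samples far from the rest of their group were looked for in groups of 5 calves for the 30 members given per sample. Of 270 groups, 30 held such a sample, and chance alone marks about 1 in 20 groups of continuous values, a rate that does not hold where the other values are tied at whole numbers. In the rumen, where 1 CPM is the smallest step, these were CD38 in animal 1 of D7 (2 CPM, others 1) and animal 5 of D42 (0, others 1), CD83 in animal 2 of D7 (0, others 1), CD5 in animal 2 of D21 (2, others 0), CD27 in animal 5 of D7 (1, others 0), CD69 in animal 1 of D7 (1, others 0), CD300C in animal 1 of D7 (2, others 3), CD86 in animal 3 of D42 (6, others 1 to 2), CD52 in animal 2 of D21 (7, others 1 to 2) and CD46 in animal 3 of D42 (189, others 151 to 157).

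Ileum animal 1 of D42, which did not follow the authors' table, stood apart in CD36 (128 CPM, others 7 to 17), CD109 (35, others 4 to 9), CD248 (30, others 14 to 18), CD59 (24, others 8 to 11), CD53 (49, others 262 to 347) and CD200 (8, others 4 to 5). Other ileum samples were CD38 in animal 5 of D7 (19, others 28 to 31), CD83 in animal 2 of D7 (63, others 36 to 42), CD244 in animal 1 of D7 (13, others 6 to 8), CD109 in animal 1 of D7 (7, others 11 to 12) and CD300C in animal 2 of D42 (12, others 9).

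In the jejunum of D42, animal 3 stood apart in CD38 (43 CPM, others 14 to 18), CD9 (265, others 117 to 150), CD44 (122, others 85 to 92) and CD55 (13, others 6 to 8), and animal 1 in CD53 (121, others 58 to 64) and CD300C (5, others 3). Earlier jejunum samples were CD37 in animal 3 of D7 (12, others 20 to 23), CD44 in animal 5 of D7 (98, others 58 to 65) and CD48 in animal 2 of D21 (57, others 30 to 36).

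The change from D0 to D7 differed between jejunum and rumen for CD83 (2.34), CD27 (2.10) and CD5 (1.83 on the log2 scale), tested as an interaction in limma. All 3 were too low to be tested within the rumen, so the values rest mainly on their jejunal rise, and for CD83 also on a rumen fall near the floor.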

How the results depend on the processing

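Among the 239 called folds of the named members (up to 4 per role), no call reversed in direction under any alternative run. Calls of the other members were not checked for direction. With FDR alone, 31, 28 and 22 members were called between jejunum and ileum at D7, D21 and D42, 12 from D0 to D7 in the jejunum and 2 for the difference between jejunum and ileum in that change. With all groups in 1 fit, 20 were called between jejunum and ileum and 28 between ileum and rumen at D0, and 1 from D0 to D7 in the ileum. With no filter, 4 were called between ileum and rumen at D0. Median-ratio scaling called 1 member (CD5) for the difference between jejunum and ileum in the D0 to D7 change, and a pseudocount of 0.5 called 1 for that between jejunum and rumen. With the calf as a replicate block, 0 were called between jejunum and ileum and 5 between ileum and rumen at D0, and beyond the changes given in the report the block changed no other call. Without the ileum sample of D42 unlike the authors' table, 20 were called between jejunum and ileum at D42. Leaving out ileum animals 1 and 2 of D0 left a single ileum sample at that age. The cause of these moves was not tested. Leaving out each calf or sample in turn gave 0 to 19, 18 to 22, 16 to 19 and 7 to 20 calls for jejunum against ileum at D0, D7, D21 and D42, 5 to 20, 33 to 35, 32 to 33 and 32 to 32 for jejunum against rumen, and 0 to 6, 36 to 37, 34 to 38 and 29 to 33 for ileum against rumen. It gave 5 to 10 calls from D0 to D7 in the jejunum, 0 to 7 in the rumen, 0 to 0 for every other age step, 0 to 6 for the jejunum and ileum interaction and 1 to 8 for that of jejunum and rumen. Of 239 called folds of the named members, 7 lost the call with no filter, 3 with a pseudocount of 0.5, 10 with median-ratio scaling and 4 with all groups in 1 fit, as did 15 of 232 with the block. Values of a few CPM, most of all in the rumen, are limited by rounding to whole numbers.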
